A study of Mus musculus with 18 samples.

Results

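The genes described here carry out the release of arachidonic acid from membranes and its conversion to prostanoids and leukotrienes. Rows of the expression table were selected by gene symbol, which gave 10 genes (Pla2g4a, Ptgs1, Ptgs2, Ptges, Tbxas1, Hpgds, Alox5, Alox5ap, Lta4h and Ltc4s) of 18204 in all. One of them, Ptgs1, was included because it was higher in knockout cells and lower after MTOB, so its values in those comparisons are a description and carry no test. J774.1 is a mouse macrophage line. The study compared its wildtype cells with Ctbp1/2 dKO cells (Ctbp1-/-, Ctbp2-/-), in which CRISPR-Cas9 had disrupted the CTBP transcriptional corepressors. Each genotype received vehicle (PBS/DMSO), 1.5 mM MTOB or 0.25 mM 4-Cl-HIPP for 4 h, in 3 biological replicates, giving 18 samples in 6 groups. The keto acid MTOB binds the dehydrogenase domain of CTBPs, and the chlorinated aryl oxime acid 4-Cl-HIPP binds the same pocket. The 2 inhibitors were used at different doses, so their values stand side by side and were not tested against each other. The dKO cells were grown out from single cells, and the number of clones is not given in the sources used here, so the genotype and the clone cannot be told apart.

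In this pathway, cytosolic phospholipase A2 (Pla2g4a) releases arachidonic acid from membrane phospholipids. Cyclooxygenases (Ptgs1, Ptgs2) turn it into an unstable endoperoxide, which terminal synthases convert to prostaglandin E2 (Ptges), thromboxane (Tbxas1) or prostaglandin D2 (Hpgds). Alternatively, 5-lipoxygenase (Alox5), helped by its activating protein FLAP (Alox5ap), makes leukotriene A4, which is hydrolysed to leukotriene B4 (Lta4h) or joined to glutathione to give leukotriene C4 (Ltc4s). Macrophages are a known source of both lipid families, with Ptgs1 usually described as the constitutive and Ptgs2 as the inducible cyclooxygenase.

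MTOB moved the cyclooxygenase genes in opposite directions, with Ptgs2 rising 4.29-fold in wildtype and 5.64-fold in dKO cells in mean TPM while Ptgs1 stood at 0.379 and 0.637 of its vehicle level. Hpgds fell with MTOB in dKO cells. In wildtype cells its log2 fold change of -0.57 (adjusted p = 0.0328, limma) was just short of the fold limit of 1.5. Between genotypes, the leukotriene genes Alox5 and Ltc4s were higher in dKO than in wildtype cells, by 5.80-fold and 2.93-fold under vehicle, beside the 9.02-fold higher Ptgs1. The Hpgds call and the Ltc4s call under vehicle were lost when only the compared groups were fitted (adjusted p = 0.0589 and 0.112), and that of Ltc4s also without either of 2 single replicates. With 4-Cl-HIPP, 0 of the 10 genes passed the test in either genotype (limma), as did 0.14% of all genes tested in wildtype and 0.153% in dKO cells.

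Values are TPM, a transcript abundance scaled to transcript length and to the sum of each sample, so levels can be compared between genes. The depth of each sample is unknown from such values, and less RNA per cell and fewer cells that express a gene cannot be told apart in bulk samples. Tests used limma on log2(TPM + 1), on which scale the change of a weakly expressed gene is understated. A gene was called when its adjusted p (Benjamini-Hochberg over 16383 genes) was below 0.05 and its fold change above 1.5. For a difference between genotypes in an inhibitor effect, the adjusted p alone was used. Replicates correlated across genes with r of 0.983 to 0.987. In the check of the targeted genes, Ctbp1 lay between 170.1 and 238 TPM in wildtype and between 19.7 and 31.5 TPM in dKO samples. Ctbp2 lay between 87.8 and 96.9 TPM in wildtype and between 68.5 and 81.9 TPM in dKO samples, so its RNA was reduced little. The study reported loss of the CTBP1 and CTBP2 proteins by western blot, which RNA values do not measure. The 7 listed macrophage markers of 8 summed to between 2216 and 2568 TPM in every sample. Each listed set of T cell, B cell, neutrophil, fibroblast, epithelial or endothelial markers summed to at most 2.10 TPM, and the 5 mast cell markers had no listed row. Single macrophage markers moved with the groups. Itgam had 15.8 ± 4.51 TPM (SD, n = 3) in wildtype vehicle and 47.9 ± 3.64 TPM in dKO vehicle samples, and its highest value in the wildtype groups (21.0 TPM) was below its lowest in the dKO groups (34.6 TPM). Lyz2 had 520.4 ± 14.2 TPM in wildtype vehicle and 673 ± 13.6 TPM in wildtype MTOB samples, and 488 ± 7.43 and 574 ± 10.7 TPM in dKO cells. Adgre1 had 29.1 ± 5.55 TPM (SD, n = 3) in wildtype vehicle, 102 ± 4.43 TPM in wildtype MTOB and 8.93 ± 1.04 TPM in dKO vehicle samples, and the part of these shifts in the results below was not tested.

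Levels of the 10 genes spanned more than 2 orders of magnitude. Under vehicle, wildtype cells were highest in Alox5ap (167 ± 19.1 TPM, SD, n = 3), followed by Pla2g4a (121 ± 3.80 TPM), Lta4h (55.5 ± 5.80 TPM), Hpgds (50.9 ± 4.49 TPM) and Ptgs1 (16.0 ± 1.86 TPM). Below these came Alox5 (9.39 ± 1.08 TPM), Ltc4s (3.55 ± 1.07 TPM) and Ptgs2 (2.77 ± 0.966 TPM), with Tbxas1 (0.764 ± 0.163 TPM) and Ptges (0.618 ± 0.601 TPM) last. The replicates overlapped between the neighbours Lta4h and Hpgds, Ltc4s and Ptgs2, and Tbxas1 and Ptges. In dKO cells under vehicle the order was Alox5ap (213 ± 14.7 TPM), Ptgs1 (144 ± 3.87 TPM), Pla2g4a (116 ± 10.3 TPM), Lta4h (55.3 ± 2.77 TPM), Alox5 (54.5 ± 1.15 TPM), Hpgds (35.8 ± 2.64 TPM), Ltc4s (10.4 ± 4.74 TPM) and Ptgs2 (2.93 ± 0.370 TPM). Tbxas1 and Ptges were again lowest. Here Lta4h and Alox5 overlapped, and Ptgs1 had moved from the fifth place to the second.

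**Figure D1:**
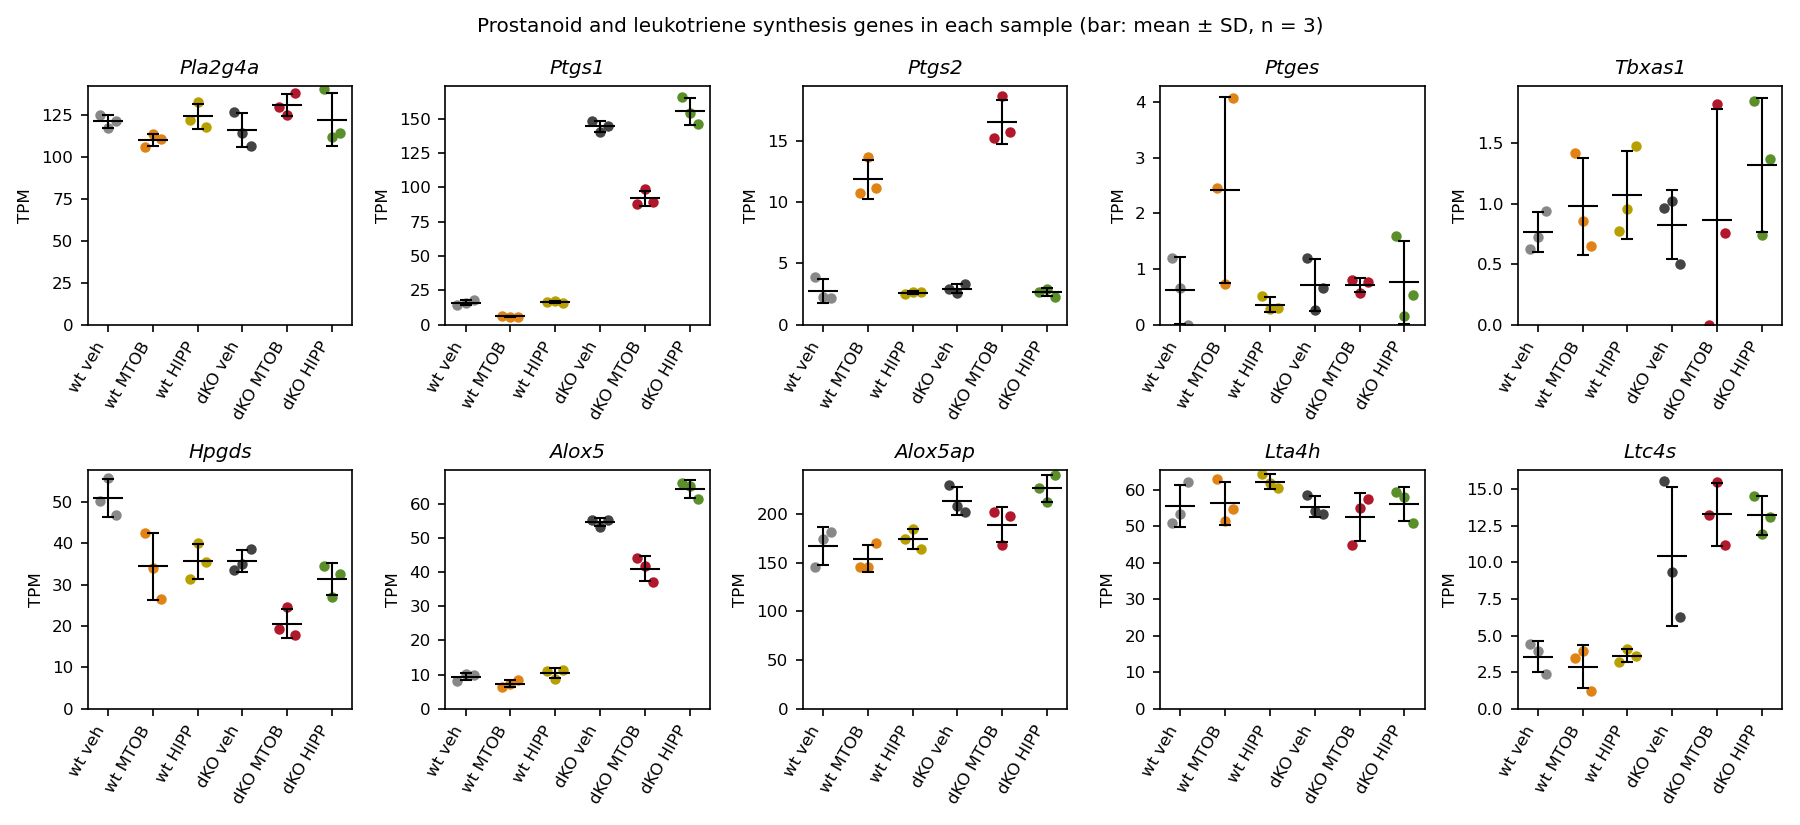
TPM (y axis, linear, from 0) of each of the 10 genes in every sample of the 6 groups (x axis; wt, wildtype; veh, vehicle; HIPP, 4-Cl-HIPP), with points for replicates and bars for the mean ± SD of 3. Ptgs1, Alox5 and Ltc4s are higher in all dKO than in all wildtype samples, and Ptgs2 is at 10.7 TPM or above only in the MTOB samples of both genotypes.

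At the step of arachidonate release, Pla2g4a did not pass the test in any comparison. Pla2g4a (ENSMUSG00000056220; GRCm39 chromosome 1 from 149705369 to 149837053, minus strand), the calcium-dependent cytosolic phospholipase, measured 125, 118 and 122 TPM in wildtype vehicle and 106, 114 and 111 TPM in wildtype MTOB samples. In dKO cells the replicates measured 127, 115 and 107 TPM with vehicle and 129.9, 125 and 138 TPM with MTOB. With 4-Cl-HIPP, they were 122, 133 and 118 TPM in wildtype and 141, 112 and 114 TPM in dKO cells. MTOB values thus lay below vehicle in wildtype cells, and overlapped with vehicle in dKO cells. The log2 fold change was -0.14 (SE 0.08, adjusted p = 0.412) in wildtype and 0.18 (SE 0.08, adjusted p = 0.250) in dKO cells. The difference between these effects, wildtype minus dKO here and below, was -0.31 (SE 0.11), with an unadjusted p of 0.0150 and an adjusted p of 0.605 (limma). Between genotypes, dKO cells differed from wildtype cells by -0.07 (SE 0.08, adjusted p = 0.734) under vehicle and -0.03 (SE 0.08, adjusted p = 0.905) under 4-Cl-HIPP. Under MTOB the dKO samples lay above the wildtype samples without overlap, at 0.24 (SE 0.08, unadjusted p = 0.00825, adjusted p = 0.0676, limma).

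Ptgs1 (ENSMUSG00000047250; GRCm39 chromosome 2 from 36120438 to 36142287, plus strand) encodes cyclooxygenase-1. Its values were 14.3, 15.8 and 17.97 TPM in wildtype vehicle, 6.29, 5.95 and 5.99 TPM in wildtype MTOB, and 16.9, 17.4 and 15.9 TPM in wildtype 4-Cl-HIPP samples. In dKO cells they were 148, 141 and 145 TPM with vehicle, 88.1, 98.5 and 89.5 TPM with MTOB, and 166, 154 and 146 TPM with 4-Cl-HIPP. Every dKO sample was above every wildtype sample, and within each genotype every MTOB sample was below every other sample. Since these were the comparisons by which the gene was chosen, they are given without a test. The log2 fold change with MTOB was -1.26 (SE 0.07) in wildtype and -0.65 (SE 0.07) in dKO cells, a difference of -0.61 (SE 0.10). In TPM, the step was larger in dKO cells, from 144 ± 3.87 to 92.0 ± 5.64 TPM against 16.0 ± 1.86 to 6.08 ± 0.182 TPM in wildtype cells (SD, n = 3). The genotypes differed by a log2 fold change of 3.10 (SE 0.07) under vehicle, 3.72 (SE 0.07) under MTOB and 3.14 (SE 0.07) under 4-Cl-HIPP. At its dose, 4-Cl-HIPP gave a log2 fold change of 0.06 (95% interval -0.09 to 0.21, adjusted p = 0.925) in wildtype and 0.10 (-0.05 to 0.25, adjusted p = 0.768) in dKO cells (limma, Benjamini-Hochberg). Both intervals lie within the fold limit of 1.5.

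The sequence before the start of Ptgs1 is shown beside that of Alox5, because Alox5 had the pattern most like that of Ptgs1 among the 6 other members with enough reads to be compared. The sequences come from the RefSeq table of mouse promoters (build GRCm38.p6), which held 10 windows for 9 of the 10 genes, and each was placed in GRCm39 by an exact and unique match. The 250 bases before the start site are given 5′ to 3′ on the strand of the gene, chr2:36120188-36120437 on the plus strand for Ptgs1 and chr6:116438140-116438389 on the minus strand for Alox5. Capitals mark the GC box, GGGCGG, the only one of 6 motifs found in either window.
Ptgs1: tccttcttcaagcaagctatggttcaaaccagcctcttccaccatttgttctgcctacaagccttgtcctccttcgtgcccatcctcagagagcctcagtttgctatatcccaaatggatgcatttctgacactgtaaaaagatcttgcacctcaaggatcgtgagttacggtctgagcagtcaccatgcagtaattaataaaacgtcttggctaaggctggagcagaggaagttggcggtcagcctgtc
Alox5: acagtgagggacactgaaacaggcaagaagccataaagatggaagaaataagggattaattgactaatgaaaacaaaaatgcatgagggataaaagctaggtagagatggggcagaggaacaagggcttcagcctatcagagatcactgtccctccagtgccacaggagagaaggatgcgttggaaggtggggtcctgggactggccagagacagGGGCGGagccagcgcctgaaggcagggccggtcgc
The GC box of Alox5 lies from -35 to -30 relative to the start site, and 32.74% of 32851 promoters of this length hold 1 on either strand. The other motifs searched on both strands were the TATA box (TATAAA, in 12.37% of promoters), the CCAAT box (CCAAT, 33.85%), the E2-box (CAGGTG, 17.22%), the CACCC box (CACCC, 52.01%) and the AP-1 site (TGANTCA, 6.75%). On either strand, matches of CACCC and CAGGTG can share no more than an end base. In the 10 windows the TATA box was found in 2, the CCAAT box in 1, the GC box in 3, the E2-box in 2, the CACCC box in 4 and the AP-1 site in 1. All 250 bases of the Ptgs2 and Hpgds windows lie in exons that Gencode M39 gives to these genes, so their motif results are not limited to sequence before the gene. The windows of Ptges, Tbxas1, Lta4h and Ltc4s and a window of Pla2g4a do so in part, and those of Ptgs1 and Alox5 do not. The Ptgs1 window overlaps annotated exons of the transcripts Gm13431 and Gm75038. A match of letters is a description of the sequence only.

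Ptgs2 (ENSMUSG00000032487; GRCm39 chromosome 1 from 149975194 to 149983978, plus strand) encodes cyclooxygenase-2. It lay at 3.88, 2.26 and 2.16 TPM in wildtype vehicle and at 10.7, 13.7 and 11.1 TPM in wildtype MTOB samples. In dKO cells it was 2.88, 2.58 and 3.32 TPM with vehicle and 15.3, 18.6 and 15.7 TPM with MTOB. The groups did not overlap in either genotype. On the log2 scale, Ptgs2 rose by 1.79 (SE 0.15, adjusted p = 1.44e-06) in wildtype and 2.16 (SE 0.15, adjusted p = 1.76e-07) in dKO cells. The difference between the genotypes in this effect was -0.36 (SE 0.21, 95% interval -0.81 to 0.09, adjusted p = 0.774), so the induction was measured in cells of both genotypes and a difference in its size was not resolved. With 4-Cl-HIPP, the values were 2.52, 2.66 and 2.69 TPM in wildtype and 2.68, 2.95 and 2.29 TPM in dKO cells. They lay within the range of the vehicle samples in wildtype cells, and in dKO cells overlapped it. The log2 fold change was -0.03 (95% interval -0.34 to 0.29) in wildtype and -0.11 (-0.43 to 0.21) in dKO cells. Under vehicle, dKO cells differed from wildtype cells by 0.09 (SE 0.15, adjusted p = 0.834) and under MTOB by 0.45 (SE 0.15, adjusted p = 0.0713). Ptgs2 did not pass the test between genotypes under any treatment.

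The balance of the cyclooxygenase genes is a direct reading of both rows in each sample. TPM of Ptgs1 divided by TPM of Ptgs2 was 3.68, 7.01 and 8.31 in wildtype vehicle, 0.585, 0.434 and 0.537 in wildtype MTOB, and 6.70, 6.53 and 5.89 in wildtype 4-Cl-HIPP samples. In dKO cells the ratio was 51.5, 54.4 and 43.6 with vehicle, 5.77, 5.29 and 5.70 with MTOB, and 62.0, 52.3 and 63.6 with 4-Cl-HIPP. Only in wildtype cells with MTOB did Ptgs2 exceed Ptgs1. There, Ptgs1 made up 34.0 ± 3.40% of the sum of both (SD, n = 3), against 85.1 ± 5.71% with vehicle. The same treatment left Ptgs1 at 84.8 ± 0.617% in dKO cells, against 98.0 ± 0.230% with vehicle. The ratio in dKO cells with MTOB (5.29 to 5.77) fell within the range of untreated wildtype cells (3.68 to 8.31). As Ptgs1 chose the comparison, these ratios are given without a test.

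**Figure D2:**
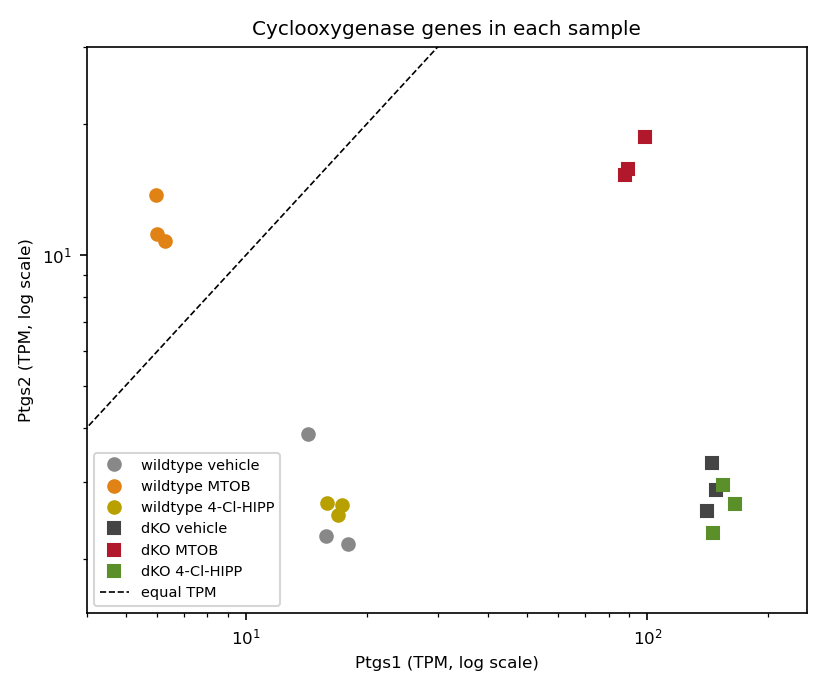
TPM of Ptgs2 (y axis, log scale) against TPM of Ptgs1 (x axis, log scale) in each of the 18 samples, coloured by group, with a dashed line where both are equal. Only the 3 wildtype MTOB samples lie above the line, and the dKO MTOB samples combine 88.1 to 98.5 TPM of Ptgs1 with 15.3 to 18.6 TPM of Ptgs2.

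The terminal synthases of the prostanoid branch differed in level. Hpgds (ENSMUSG00000029919; GRCm39 chromosome 6 from 65094001 to 65121983, minus strand), the glutathione-dependent prostaglandin D synthase, was the only one of the 3 above 5 TPM in any sample. Its values were 50.2, 55.7 and 46.9 TPM in wildtype vehicle, 42.6, 34.0 and 26.6 TPM in wildtype MTOB, and 31.4, 40.0 and 35.4 TPM in wildtype 4-Cl-HIPP samples. In dKO cells they were 33.6, 35.1 and 38.7 TPM with vehicle, 19.2, 24.5 and 17.8 TPM with MTOB, and 34.5, 27.1 and 32.6 TPM with 4-Cl-HIPP. Every MTOB sample lay below every vehicle sample of its genotype. Hpgds fell by 0.78 on the log2 scale with MTOB in dKO cells (SE 0.15, adjusted p = 0.00518). In wildtype cells the log2 fold change was -0.57 (SE 0.15, adjusted p = 0.0328), just inside the adjusted p and just short of the fold limit. Without the first wildtype MTOB replicate it was -0.74 (adjusted p = 0.00840). The difference between the genotypes in this effect was 0.21 (SE 0.22, adjusted p = 0.909). The 4-Cl-HIPP samples of wildtype cells did not overlap with vehicle either, at -0.51 on the log2 scale (SE 0.15, 95% interval -0.84 to -0.18) that missed the threshold over all genes (adjusted p = 0.276). In dKO cells the 4-Cl-HIPP and vehicle samples overlapped, at -0.19 (SE 0.15, adjusted p = 0.838). Between genotypes under MTOB, dKO cells had the lower level of Hpgds, with a log2 difference of -0.71 (SE 0.15, adjusted p = 0.00603), and of -0.54 (adjusted p = 0.0336), short of the fold limit, without the first wildtype MTOB replicate. Under vehicle the difference was -0.50 (SE 0.15, adjusted p = 0.0520), and under 4-Cl-HIPP, where the genotypes overlapped, -0.18 (SE 0.15, adjusted p = 0.610). Both Hpgds calls were lost when the fit held only the samples of the compared groups (adjusted p = 0.0589 for MTOB in dKO cells and 0.131 between genotypes under MTOB).

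Ptges and Tbxas1 were close to the lower end of what the table resolves. Ptges (ENSMUSG00000050737; GRCm39 chromosome 2 from 30779483 to 30820196, minus strand), the inducible prostaglandin E synthase, had 1.20, 0.655 and 0 TPM in wildtype vehicle and 2.45, 0.729 and 4.07 TPM in wildtype MTOB samples. The groups overlapped, and the log2 fold change of 1.02 (SE 0.38, adjusted p = 0.143) did not pass. It passed, at 1.44 (adjusted p = 0.0301), without the second wildtype MTOB replicate. In the other 4 groups Ptges ranged from 0.161 to 1.60 TPM. Tbxas1 (ENSMUSG00000029925; GRCm39 chromosome 6 from 38852203 to 39061523, plus strand), thromboxane A synthase, ranged from 0 to 1.85 TPM over the 18 samples. All its groups overlapped, and its log2 fold changes between inhibitor and vehicle lay between -0.09 and 0.33 (SE 0.30 each). The mean normalized counts of 10.4 for Ptges and 9.33 for Tbxas1, against 1288 for Pla2g4a, leave changes of these genes within the spread between replicates hard to resolve.

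In the leukotriene branch, Alox5 and Ltc4s were called between genotypes, Alox5ap and Lta4h were not, and no gene was called with an inhibitor. Over all genes, too, more were called between genotypes (4.83% under vehicle) than with MTOB (2.01% in wildtype and 1.63% in dKO cells) or 4-Cl-HIPP (0.14% and 0.153%). Alox5 (ENSMUSG00000025701; GRCm39 chromosome 6 from 116387032 to 116438139, minus strand) measured 8.15, 10.1 and 9.98 TPM in wildtype vehicle and 55.1, 53.2 and 55.2 TPM in dKO vehicle samples. With MTOB the values were 6.40, 7.36 and 8.27 TPM in wildtype and 44.2, 41.6 and 36.9 TPM in dKO cells. With 4-Cl-HIPP they were 11.1, 8.65 and 11.5 TPM in wildtype and 66.1, 65.3 and 61.4 TPM in dKO cells. All 9 dKO samples were above all 9 wildtype samples, and the lowest dKO value was more than 3 times the highest wildtype value. The log2 fold change between genotypes was 2.42 (SE 0.11, adjusted p = 3.50e-10) under vehicle, 2.33 (SE 0.11, adjusted p = 5.84e-10) under MTOB and 2.53 (SE 0.11, adjusted p = 1.97e-10) under 4-Cl-HIPP. The MTOB effect on Alox5 was -0.32 on the log2 scale (SE 0.11, adjusted p = 0.0935) in wildtype and -0.41 (SE 0.11, adjusted p = 0.0306) in dKO cells. The latter passed the adjusted p and not the fold limit, and its samples did not overlap with vehicle. The 4-Cl-HIPP samples of dKO cells lay above vehicle without overlap, at a log2 fold change of 0.23 (95% interval 0.01 to 0.46) that did not pass over all genes (adjusted p = 0.562).

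Alox5ap (ENSMUSG00000060063; GRCm39 chromosome 5 from 149196003 to 149227762, plus strand), which presents arachidonic acid to 5-lipoxygenase, was abundant in all groups. It had 146, 174 and 182 TPM in wildtype vehicle and 230.0, 208 and 202 TPM in dKO vehicle samples, without overlap. The log2 fold change between genotypes was 0.35 (SE 0.10, adjusted p = 0.0243) under vehicle, 0.29 (SE 0.10, adjusted p = 0.0624) under MTOB and 0.37 (SE 0.10, adjusted p = 0.0181) under 4-Cl-HIPP, all short of the fold limit. MTOB samples ranged from 146 to 170.2 TPM in wildtype and from 169 to 202 TPM in dKO cells, at adjusted p of 0.606 and 0.356 against vehicle. With 4-Cl-HIPP the ranges were 164 to 185 TPM and 212 to 240.1 TPM.

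Of the enzymes that use leukotriene A4, Ltc4s was higher in dKO cells and Lta4h did not pass any test. Lta4h (ENSMUSG00000015889; GRCm39 chromosome 10 from 93289210 to 93320749, plus strand), the hydrolase that makes leukotriene B4, had 51.0, 53.4 and 62.0 TPM in wildtype vehicle and 58.5, 54.1 and 53.4 TPM in dKO vehicle samples. Its range over all 18 samples was 45.0 to 64.4 TPM, and the log2 fold change between genotypes under vehicle was 0.00 (95% interval -0.21 to 0.21). No comparison of Lta4h had an adjusted p below 0.452. Ltc4s (ENSMUSG00000020377; GRCm39 chromosome 11 from 50127288 to 50129443, minus strand), the synthase of leukotriene C4, had 4.39, 3.92 and 2.34 TPM in wildtype vehicle and 15.6, 9.34 and 6.28 TPM in dKO vehicle samples. With MTOB it had 3.45, 3.95 and 1.22 TPM in wildtype and 13.2, 15.5 and 11.2 TPM in dKO cells, and with 4-Cl-HIPP 3.21, 4.06 and 3.62 TPM and 14.6, 11.9 and 13.1 TPM. The dKO samples were above the wildtype samples throughout, though the dKO vehicle replicates were widely spread. The log2 fold change was 1.27 (SE 0.31, adjusted p = 0.0136) under vehicle, 1.96 (SE 0.31, adjusted p = 0.000471) under MTOB and 1.62 (SE 0.31, adjusted p = 0.00242) under 4-Cl-HIPP. Under vehicle it was 1.06 (adjusted p = 0.0715) without the third wildtype replicate and 0.96 (adjusted p = 0.0744) without the first dKO replicate, and the call was lost in both cases, as it was with only the compared groups (adjusted p = 0.112). Ltc4s did not pass the test with either inhibitor, and its log2 fold changes were -0.29 (SE 0.31) and 0.40 (SE 0.31) for MTOB in wildtype and dKO cells.

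The library kit does not mark strand, and exons of 8 of the 10 genes, all but Pla2g4a and Lta4h, share bases with a gene on the opposite strand in Gencode M39. For Ltc4s these are 268 of 1037 exonic bases, shared with Gm26542. Listed TPM of Gm26542 were 1.78 ± 1.32 (SD, n = 3) in wildtype vehicle and 3.41 ± 0.288 in dKO vehicle samples. Reads that lie wholly within the shared bases of such a pair cannot be told apart by strand. For Ptgs2, 476 of 5123 exonic bases are shared with Ptgs2os, which had at most 0.441 TPM in any sample.

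**Figure D3:**
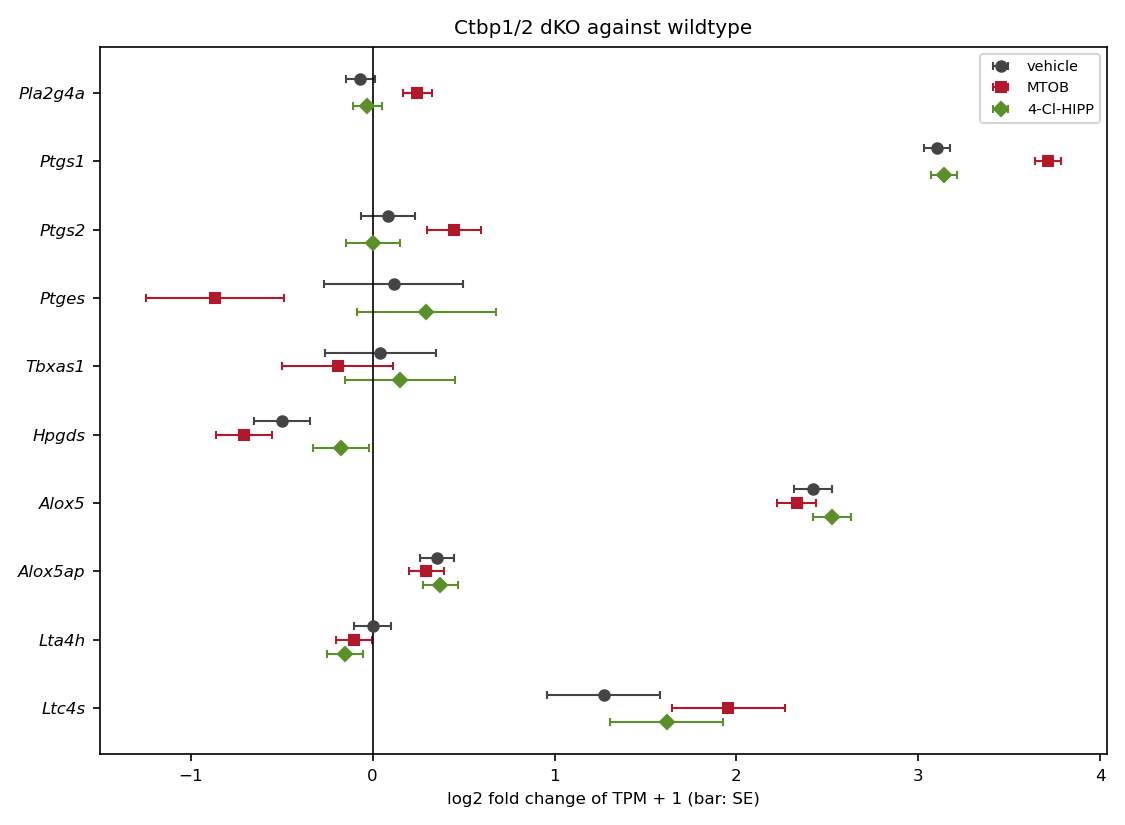
Log2 fold change of TPM + 1 between dKO and wildtype cells (x axis; bars, SE from the model of 18 samples) for each of the 10 genes under vehicle, MTOB and 4-Cl-HIPP. Ptgs1, Alox5 and Ltc4s lie to the right of 1 under every treatment, while Pla2g4a, Ptgs2, Tbxas1 and Lta4h lie within 0.45 of 0.

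Set against all genes, the 9 genes other than Ptgs1 gave the following counts. The members were chosen with earlier results of these data known, so the counts are a description and do not test the set. With MTOB in wildtype cells 1 of 9 was called (Ptgs2), where 2.01% of the 16383 genes tested were, and in dKO cells 2 of 9 (Ptgs2 higher, Hpgds lower), where 1.63% were. Between genotypes, 2 of 9 were called under vehicle (Alox5 and Ltc4s, 4.83% of all genes), 3 of 9 under MTOB (Hpgds in addition, 4.95%) and 2 of 9 under 4-Cl-HIPP (4.72%). With 4-Cl-HIPP, 0 of 10 genes were called in wildtype cells (0.14% of all genes) and 0 of 10 in dKO cells (0.153%, limma). At an unadjusted p below 0.05 there was 1 of 10 in each, Hpgds in wildtype and Alox5 in dKO cells, where 8.19% and 8.47% of all genes had such a p. For the MTOB effect between genotypes, 0 of 9 passed (0.0916% of all genes) and 1, Pla2g4a, had an unadjusted p below 0.05, as did 6.89% of all genes. For the 4-Cl-HIPP effect between genotypes, 0 of 10 passed, as did 0% of all genes, and 0 had an unadjusted p below 0.05. The median log2 fold change of the 10 genes, Ptgs1 included, was -0.13 with MTOB in wildtype (all genes -0.0057) and -0.085 in dKO cells (all genes -0.013). It was 0.10 between genotypes under vehicle (all genes 0.012). Such medians hide opposite movements, as of Ptgs1 and Ptgs2 with MTOB. Ptgs1 enters them by the values for which it was chosen, so they are a description and carry no test. The comparisons of MTOB and 4-Cl-HIPP share the vehicle samples of each genotype.

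**Figure D4:**
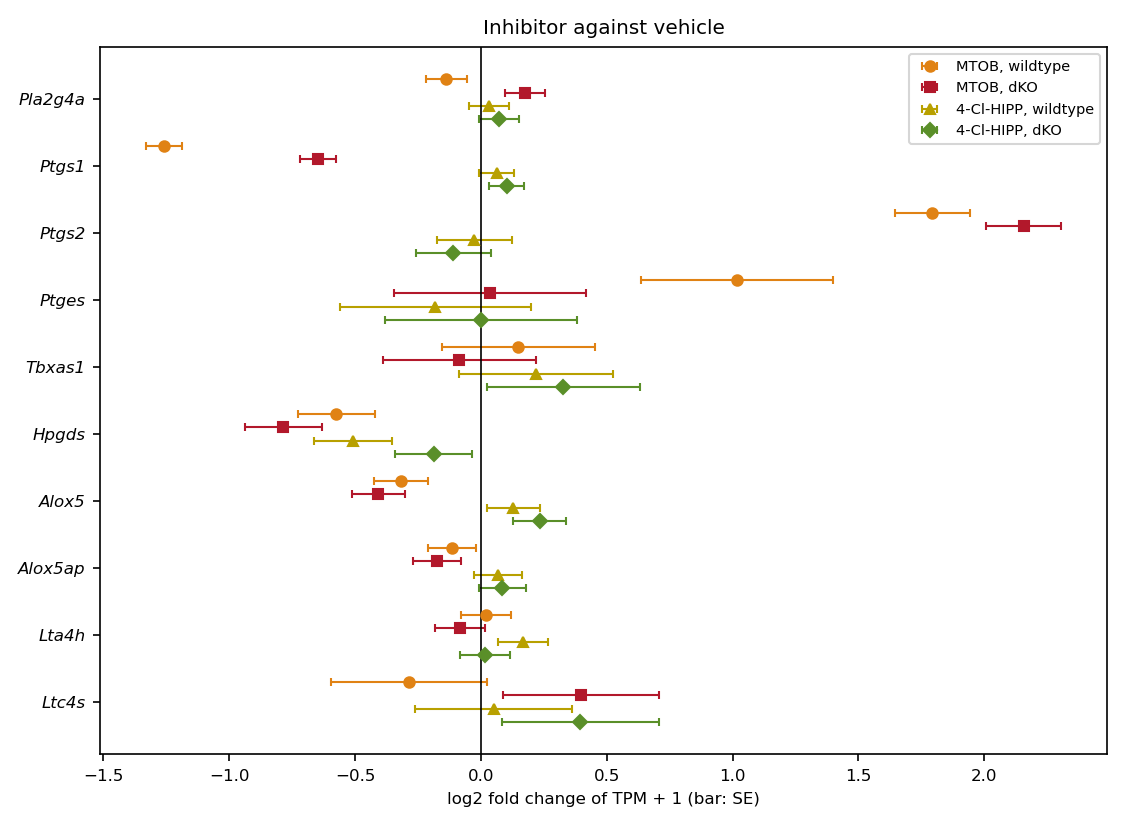
Log2 fold change of TPM + 1 between inhibitor and vehicle (x axis; bars, SE from the model of 18 samples) for each of the 10 genes, with MTOB at 1.5 mM and 4-Cl-HIPP at 0.25 mM in both genotypes. With MTOB, Ptgs2 lies at 1.79 and 2.16 and Ptgs1 at -1.26 and -0.65, whereas with 4-Cl-HIPP all 10 genes lie between -0.51 and 0.40.

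The rest of the pathway was read from a list of 96 further genes for arachidonate handling, other synthases, receptors, transport and inactivation. This list, too, was drawn up with earlier results of these data known, so its counts are a description. Of these, 58 were in the table, in 59 rows because Dpep2 had 2, and 56 rows were tested. With MTOB, 4 rose and 0 fell past both limits in wildtype cells (2.01% of all genes called), and 3 rose and 0 fell in dKO cells (1.63%). Calls over all genes leaned the same way, with 77.5% of them higher in wildtype and 70.8% in dKO cells. With 4-Cl-HIPP, 0 of 56 were called in either genotype (limma), with 10 and 6 at an unadjusted p below 0.05 (8.19% and 8.47% of all genes). Between genotypes under vehicle, 8 were higher and 2 lower in dKO cells (4.83% of all genes called, 67.9% of these higher). For the inhibitor effects between genotypes 0 of 56 passed, with 4 for MTOB and 3 for 4-Cl-HIPP at an unadjusted p below 0.05 (6.89% and 4.48% of all genes). The median log2 fold change of the 56 was 0.045 with MTOB in both genotypes, and 0.037 between genotypes under vehicle, beside the medians of all genes given above.

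Pla2g5, a secreted phospholipase A2, rose with MTOB in wildtype cells from 67.0 ± 11.0 to 161 ± 16.1 TPM (SD, n = 3; log2 fold change 1.26, SE 0.16, adjusted p = 0.000109). In dKO cells it had 16.5 ± 1.12 TPM with vehicle and 23.2 ± 2.14 TPM with MTOB, a difference of 0.47 on the log2 scale (SE 0.16, adjusted p = 0.106). The difference between these effects was 0.80 (SE 0.23, adjusted p = 0.389). The secreted enzyme was lower in dKO cells, at -1.95 on the log2 scale (SE 0.16, adjusted p = 5.69e-07) under vehicle, where the cytosolic enzyme Pla2g4a did not pass. Abcc1, a transporter that exports leukotriene C4, rose with MTOB from 39.4 ± 4.44 to 70.6 ± 4.52 TPM in wildtype (adjusted p = 5.04e-05) and from 47.6 ± 2.29 to 82.2 ± 7.42 TPM in dKO cells (adjusted p = 0.000127). The prostacyclin receptor Ptgir rose from 23.8 ± 1.54 to 46.1 ± 0.875 TPM (adjusted p = 1.40e-07) and from 20.1 ± 1.83 to 44.4 ± 0.867 TPM (adjusted p = 2.63e-08). The prostaglandin E2 receptor Ptger4 differed from vehicle by 0.46 on the log2 scale in MTOB-treated dKO cells (SE 0.13, adjusted p = 0.0423), short of the fold limit.

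The aldo-keto reductase Akr1b8 moved with both factors, and was at 41.2 ± 3.40 TPM in wildtype vehicle, 114 ± 6.12 TPM in wildtype MTOB, 186 ± 5.20 TPM in dKO vehicle and 418 ± 21.9 TPM in dKO MTOB samples (SD, n = 3). Its log2 fold change was 1.44 (SE 0.07, adjusted p = 2.35e-09) with MTOB in wildtype cells and 2.15 (SE 0.07, adjusted p = 7.02e-12) between genotypes under vehicle. Akr1b3, aldose reductase, which also has prostaglandin F synthase activity, was higher in dKO cells, at 622 ± 32.3 against 346 ± 8.64 TPM (adjusted p = 1.68e-08). Cbr1, a carbonyl reductase that can act on prostaglandin E2, was lower, at 0.284 ± 0.0798 TPM in dKO and 7.86 ± 0.127 TPM in wildtype cells (log2 fold change -2.79, SE 0.14, adjusted p = 1.57e-09). The microsomal glutathione transferases Mgst2 and Mgst3, relatives of Ltc4s and Alox5ap, were higher in dKO cells by 0.77 (SE 0.13, adjusted p = 0.000863) and 0.83 (SE 0.08, adjusted p = 1.88e-06). Cysltr1, a receptor for cysteinyl leukotrienes, had 7.08 ± 1.29 TPM in wildtype and 17.2 ± 1.09 TPM in dKO vehicle samples (adjusted p = 0.00471). Under MTOB and under 4-Cl-HIPP, Cysltr1 was not called between genotypes.

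Of the acyltransferases that return fatty acids to phospholipids, Mboat7, which uses arachidonate for phosphatidylinositol, had 27.4 ± 2.83 TPM in wildtype and 62.1 ± 1.38 TPM in dKO vehicle samples (adjusted p = 2.04e-07). Mboat1 was higher in dKO cells under vehicle by 0.92 (SE 0.09, adjusted p = 5.18e-06) and Lpcat1 by 0.72 (SE 0.10, adjusted p = 9.24e-05). Lpcat1 was not called between genotypes under MTOB. Mboat7 shares 2201 of 8533 exonic bases with Tsen34 on the opposite strand, and Acsl5, named next, 2217 of 5946 with Zdhhc6. Genes that passed the adjusted p and not the fold limit in dKO against wildtype cells under vehicle were Acsl5, Lpcat2, Plcg2 and Cotl1, which binds 5-lipoxygenase, on the higher side, and Ptgir and Ptges3 on the lower side. With MTOB these were Akr1b3, Fabp5, Dpep2 and, lower, Plcg2 in wildtype cells, and Akr1b3, Ptger4 and, lower, Acsl3 and Plcg2 in dKO cells. Of the 2 rows of Dpep2, only a single row passed.

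**Figure D5:**
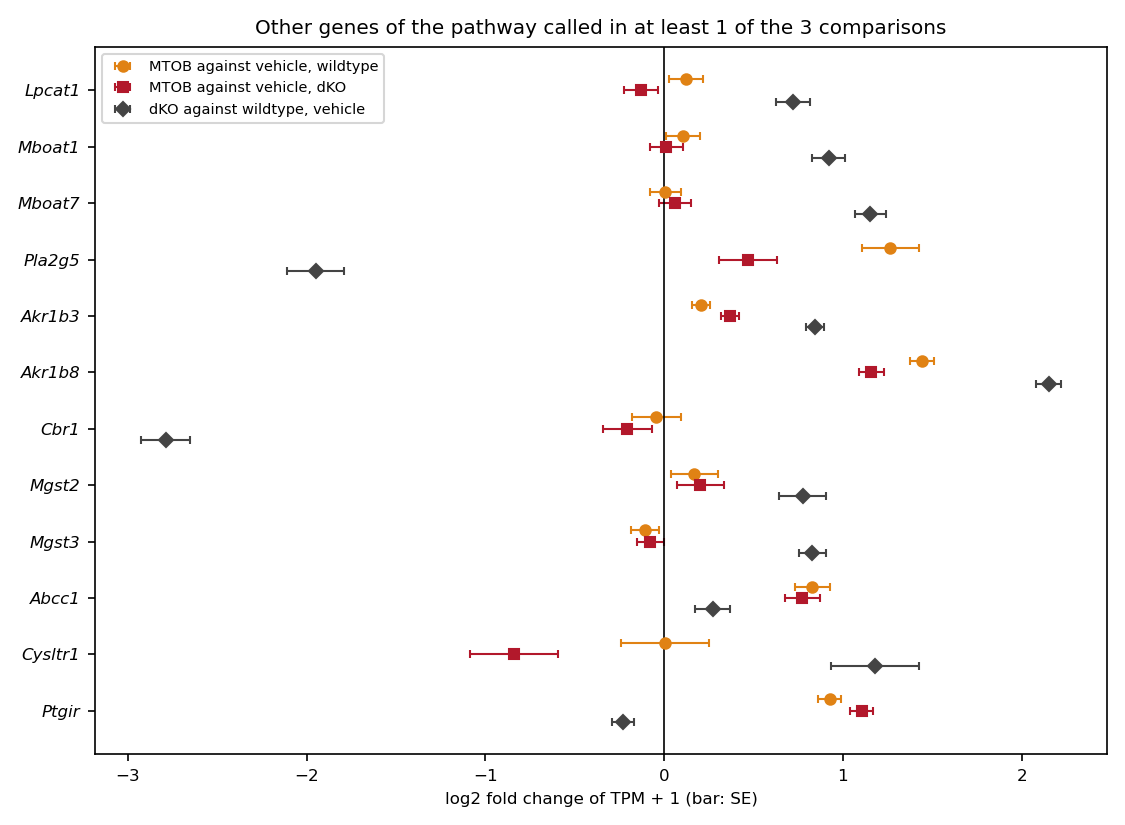
Log2 fold change of TPM + 1 (x axis; bars, SE from the model of 18 samples) of the 12 other pathway genes called in at least 1 of 3 comparisons, MTOB against vehicle in each genotype and dKO against wildtype under vehicle. Akr1b8 lies to the right in all 3, at 1.44, 1.16 and 2.15, and Pla2g5 changes side, at 1.26 with MTOB in wildtype cells and -1.95 between genotypes.

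Among 9286 genes whose mean normalized count reached 50, those with the pattern most like Ptgs1 were found by Pearson r of log2(TPM + 1) over the 18 samples. These samples fall into 2 genotypes, so r mainly describes the gap between them. The highest were Pak1 (r = 0.991), Alox5 (0.984), S100a4 (0.983), Eno3 (0.982) and Bhlhe40 (0.982), and the lowest Cd52 (-0.989), Ryk (-0.988) and Ets2 (-0.987). Alox5 was thus second of 9286. Of the other members compared, Alox5ap was at 0.856, while Pla2g4a had 0.273, Ptgs2 -0.17, Lta4h -0.21 and Hpgds -0.40. Ltc4s, Ptges and Tbxas1 were below that mean count and were not compared. After the mean of each genotype had been subtracted, r with Ptgs1 was 0.785 for Alox5, 0.604 for Alox5ap, 0.581 for Hpgds, 0.378 for Lta4h, 0.240 for Pla2g4a and -0.91 for Ptgs2. What then remains of Ptgs1 is mainly its lower level with MTOB, by which it was chosen, so these values restate the MTOB response of each gene given above.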

How the data were processed

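Per the labels and the methods, RNA of J774.1 cells was sequenced from 18 samples, and the authors quantified it with Salmon 1.9.0 on Gencode M28, summarised it per gene with tximport and tested it with DESeq2 1.44.0. The authors deposited TPM per gene and sample (headed as scaled TPM, summing to between 999766 and 999897 per sample) and a column of signal, the average per gene of their normalized counts. Their deposited log2 fold change and adjusted p-value columns for each inhibitor were not used. Depth per sample is not given by TPM, so no counting interval is printed. In the fit to all 18 samples, p-values rest on the spread between replicates, pooled over the 6 groups and drawn toward a trend over genes.

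Here, limma 3.58.1 (R 4.3.3, with data.table at version 1.17.8) was fitted to log2(TPM + 1) of the 16383 genes whose mean normalized count exceeded the 10th percentile (0.222), with 6 group means over all 18 samples and a variance trend on the mean normalized count. A fit of this kind was tested on simulated data. Comparisons were each inhibitor against vehicle per genotype, dKO against wildtype per treatment, and the difference of each inhibitor effect, wildtype minus dKO. All 10 members passed the filter. The members and gene lists were chosen with earlier results of these data known. Named genes were the members, the targeted genes, further pathway genes with an adjusted p below 0.05 in a comparison, and the 5 genes with the highest and 3 with the lowest correlation with Ptgs1. Alternatives were a pseudocount of 0.1, a mean TPM of at least 1 or no filter, median-of-ratios scaling, only the compared groups, no variance trend, a replicate block and leaving out each sample. Gene positions are from Gencode M39 (GRCm39). Plots used matplotlib 3.10.9 under Python 3.11.15.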

Additional observations from a re-analysis of the deposited data

How the results depend on the processing

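Of 612 recomputed values of the 10 genes under 7 settings, 606 were counted as unchanged, 3 lost a call, 1 gained one, 2 moved and 0 called values reversed. Among them, the values of Ptgs1 in the comparisons by which it was chosen carry no call that could be lost or gained. The calls lost were Hpgds with MTOB in dKO cells, Hpgds between genotypes under MTOB, and Ltc4s between genotypes under vehicle (adjusted p = 0.112), each when only the compared groups, and so fewer samples, were fitted. With a pseudocount of 0.1, Hpgds with MTOB in wildtype cells was called (-0.59, adjusted p = 0.0276), and Ptgs1 moved to -1.38 with MTOB in wildtype cells and to 3.90 between genotypes under MTOB. Ptges and Tbxas1 gave no value with a mean TPM of at least 1. Leaving out each sample gave 1614 of 1620 values counted as unchanged, again with the values of Ptgs1 that carry no call included. The calls of Ptgs2 and Alox5 held each time.

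Counts of called genes over the whole table fell with only the compared groups from 267 to 135 for MTOB in dKO, from 25 to 7 for 4-Cl-HIPP in dKO and from 23 to 15 for 4-Cl-HIPP in wildtype cells. The 4-Cl-HIPP effect between genotypes then gave 2 in place of 0, and the MTOB effect between genotypes fell from 15 to 6 without the variance trend. The cause of the last change was not tested. Of the 4-Cl-HIPP calls in dKO cells 80.0% were higher, against 42.9% with only the compared groups and 65.4% with a mean TPM of at least 1. Leaving out 1 sample gave 293 to 351 (MTOB, wildtype), 9 to 25 (4-Cl-HIPP, wildtype), 224 to 278 (MTOB, dKO) and 12 to 31 (4-Cl-HIPP, dKO). Between genotypes it gave 706 to 798 (vehicle), 724 to 809 (MTOB) and 699 to 779 (4-Cl-HIPP), and for the differences of effects 7 to 20 (MTOB) and 0 to 3 (4-Cl-HIPP). For 4-Cl-HIPP the low counts came without wildtype 4-Cl-HIPP replicate 2 (9) or wildtype vehicle replicate 3 (10), and without dKO 4-Cl-HIPP replicate 1 (12) or dKO vehicle replicates 1 or 2 (15 each).

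Same-numbered samples did not deviate together (correlations of -0.0556 to 0.0791 in 21 pairs, 0 above 0.1). Such weak correlations cannot show whether same-numbered samples shared more than a number. Library numbers run in replicate order within each genotype. All wildtype libraries have lower numbers than all dKO libraries, so the order of library numbers and the genotype cannot be told apart. The replicate block gave 8 in place of 15 for the MTOB effect between genotypes, 319, 256, 19 and 23 for the inhibitors (MTOB wildtype, MTOB dKO, 4-Cl-HIPP wildtype, 4-Cl-HIPP dKO) and changed no call of the 10 genes. Unknown depth limits Ptges, Tbxas1 and Ltc4s most.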
